A study of Mus musculus with 18 samples.

Results

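The transcription factor genes Ehf, Ikzf2 and Foxp1 were followed probe set by probe set in mouse hepatoma cells that had been exposed to either of 2 ligands of the aryl hydrocarbon receptor (AHR). A probe set is a group of short array probes that is summarised to 1 signal. Members were all probe sets that the platform annotation assigns to 1 symbol and to no other: 4 for Ehf, 3 for Ikzf2 and 8 for Foxp1, 15 of the 45101 probe sets on the array (3 of the 18193 genes with such probe sets). The genes had been chosen because, in wild-type cells, their brightest probe set gave a higher signal with TCDD than with BaP while other probe sets of the same gene gave other differences. The members were thus chosen by the signals of the wild-type TCDD and BaP arrays, and the differences between those arrays are given as descriptions, with no test. Brightest here means the highest mean signal over all 18 arrays, so the DMSO and c35 arrays took part in naming that probe set.

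Hepa-1c1c7 is a mouse hepatoma cell line, called wild-type here. Its derivative c35 carries a missense mutation in the Ahr gene, so that its receptor still binds ligand but cannot bind DNA. All cells were grown in alpha MEM with 5% fetal bovine serum and were exposed for 8 hr to DMSO, the vehicle (naive cells), to 5 nM TCDD (2,3,7,8-tetrachlorodibenzo-p-dioxin, a persistent dioxin) or to 5 µM BaP (benzo[a]pyrene, a polycyclic aromatic hydrocarbon that AHR-induced enzymes metabolise). The TCDD dose of the wild-type arrays comes from the study's methods, and the other doses and times from the labels. Each of the 6 combinations of line and treatment was measured on 3 arrays, 18 in all. c35 is a single derived line, so other differences between the lines cannot be told apart from the receptor mutation. The mutation changes the protein, so the Ahr transcript does not check the line labels. The study's methods call the 3 arrays of a group biological replicates, each with its own RNA extraction. The p-values measure the spread between cultures within a group, pooled over the 6 groups of both lines, and do not extend to other cell lines.

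EHF is an ETS-domain transcription factor of epithelial cells. IKZF2, also called Helios, is a zinc-finger protein of the Ikaros family, best known from T lymphocytes, and Ikaros proteins work with the NuRD chromatin remodelling complex. FOXP1 is a forkhead protein that acts mostly as a repressor and is needed in development of the heart, the lung and B lymphocytes. AHR, when it has bound a ligand, pairs with ARNT and binds DNA elements with the core letters GCGTG.

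Because the c35 receptor lacks DNA binding, the letters of that core were looked for around the annotated starts of the genes. Of the 3 genes, 1 had entries in the promoter table used here (RefSeq, build GRCm38.p6), namely Foxp1 with 3 starts, all on the minus strand. The core was searched as GCGTG and, for the other strand, as CACGC in a window of 300 bases, 250 before and 50 after each start. It was absent from the windows at chr6:99520944-99521243 and chr6:99266466-99266765. It occurred once in the window at chr6:99028249-99028548, beginning 34 bases after the annotated start. That window is shown 5′ to 3′ on the strand of the gene because it was the only one of the 3 to hold the core, which is in capitals.
Foxp1 start at chr6:99028249-99028548: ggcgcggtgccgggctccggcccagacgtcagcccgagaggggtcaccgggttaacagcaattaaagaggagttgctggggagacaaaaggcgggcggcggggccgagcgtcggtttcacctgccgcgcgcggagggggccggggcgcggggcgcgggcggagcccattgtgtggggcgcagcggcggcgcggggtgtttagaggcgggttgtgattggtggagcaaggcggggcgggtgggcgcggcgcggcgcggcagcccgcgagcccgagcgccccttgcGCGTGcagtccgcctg
Of all 32851 promoter windows of this length, 32.4% held the core at least once, so a match at 1 of 3 starts describes the letters and no more.

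The deposited values were log2 signals, and all differences are on that log2 scale, so that a difference of 1 is a doubling. Affymetrix control probe sets were set aside, which left 45037 probe sets in every test. Array medians ran from 5.62 to 5.69, and arrays of the same line correlated at 0.991 or above. The difference between the 3′ and 5′ Actb control probe sets, a measure of RNA integrity, was 0.73 to 1.38 on wild-type arrays and 0.30 to 0.53 on c35 arrays, with no overlap, and was highest on wild-type DMSO replicate 1. That array also lay farthest from its group (SD of its deviations 0.181, against 0.103 to 0.143 on the other arrays). Results that rest on it are given with and without it.

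At the brightest Ehf probe set (1451375_at, percentile 51.7 of all mean signals), the wild-type DMSO arrays gave signals of 5.56, 5.01 and 4.90, the TCDD arrays 5.27, 5.01 and 5.16, and the BaP arrays 4.13, 4.30 and 4.37. All BaP arrays lay below all DMSO and all TCDD arrays, while DMSO and TCDD arrays overlapped. The BaP mean was 0.89 ± 0.15 (SE) lower than the DMSO mean, or 0.69 lower without wild-type DMSO replicate 1. The TCDD mean differed from the DMSO mean by -0.01 ± 0.15, and by 0.19 without that replicate.

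At the brightest Ikzf2 probe set (1437542_at, percentile 70.5), the wild-type signals were 7.23, 7.47 and 7.26 with DMSO, 7.40, 7.21 and 7.05 with TCDD, and 6.34, 6.51 and 6.19 with BaP. The order was that of Ehf, with BaP below both other groups and the other groups overlapping. BaP differed from DMSO by -0.98 ± 0.11 and TCDD by -0.10 ± 0.11.

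At the brightest Foxp1 probe set (1435222_at, percentile 72.7), the wild-type signals were 7.80, 7.84 and 7.93 with DMSO, 7.70, 7.97 and 7.82 with TCDD, and 6.94, 7.10 and 7.01 with BaP. Again BaP lay below both other groups, which overlapped. BaP differed from DMSO by -0.84 ± 0.09 and TCDD by -0.03 ± 0.09. In bulk RNA such as this, fewer cells that make a transcript and less of it per cell cannot be told apart.

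**Figure D1:**
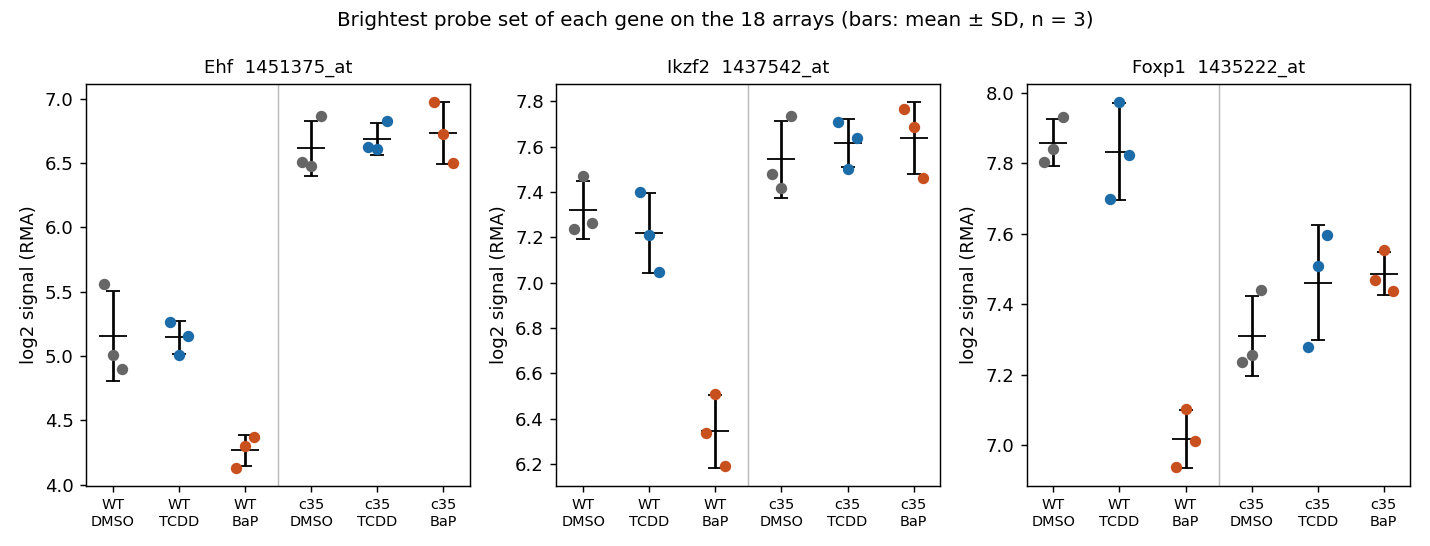
Log2 signal of the brightest probe set of Ehf, Ikzf2 and Foxp1 on each of the 18 arrays, by line (WT, wild-type) and treatment; each point is 1 array, and horizontal and vertical bars give the group mean and its SD (n = 3). The vertical axes differ between panels and do not start at 0; in each panel the wild-type BaP arrays lie below the wild-type DMSO and TCDD arrays, while the c35 groups overlap.

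The difference that chose the genes, TCDD minus BaP in wild-type cells, was 0.88 ± 0.15 for Ehf, 0.87 ± 0.11 for Ikzf2 and 0.82 ± 0.09 for Foxp1 at these probe sets. There, in the same order, BaP differed from DMSO by -0.89, -0.98 and -0.84, and TCDD from DMSO by -0.01, -0.10 and -0.03. Without wild-type DMSO replicate 1 the Ehf values were -0.69 for BaP and 0.19 for TCDD. No member probe set had all TCDD arrays above all DMSO arrays. That separation was seen at 8.09% of all probe sets, so its absence among 15 says little. Over the 15 probe sets, the TCDD arrays lay wholly above the BaP arrays at 9, against 11.2% of all probe sets, a count that the choice of genes fixed in part, and wholly below them at 0 (10% of all). The BaP arrays lay wholly below the DMSO arrays at 11 (10.8% of all) and wholly above at 1 (9.24% of all), and the TCDD arrays lay wholly below the DMSO arrays at 4 (7.48% of all). All of these comparisons share arrays. The choice of genes favoured low BaP and high TCDD signals, so it also bears in part on the counts against DMSO.

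The Ehf probe sets disagreed on BaP. Next to the -0.89 of 1451375_at, the pair that was designed on 1 source sequence, 1419474_a_at and 1419475_a_at, differed between BaP and DMSO by -0.17 ± 0.13 and -0.26 ± 0.15. The fourth, 1447760_x_at, went the other way. Its DMSO arrays gave 4.74, 4.93 and 4.82 and its BaP arrays 5.12, 5.33 and 4.97, all above DMSO, a difference of 0.31 ± 0.11. On Affymetrix arrays, the suffix _x_at marks probe sets with probes that also match other sequences, and _a_at marks probe sets for several transcripts of 1 gene. TCDD minus BaP across the 4 Ehf probe sets was therefore 0.88, 0.36, 0.17 and -0.17, from the highest to the lowest mean signal over the 18 arrays. That order includes the c35 arrays. In wild-type cells 1447760_x_at was not the dimmest, with means of 4.83, 4.97 and 5.14 with DMSO, TCDD and BaP. The means of 1419474_a_at were 4.24, 4.43 and 4.07 in the same order, and those of 1419475_a_at 4.71, 4.62 and 4.45.

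The second Ikzf2 probe set, 1456956_at, gave 6.12, 5.66 and 5.51 with DMSO, 5.23, 5.07 and 5.09 with TCDD and 4.78, 4.88 and 5.01 with BaP in wild-type cells. Here the TCDD arrays too lay below the DMSO arrays, unlike at 1437542_at, and DMSO replicate 1 was the highest of the group. TCDD differed from DMSO by -0.63 ± 0.13 and BaP by -0.87 ± 0.13, or by -0.45 and -0.70 without that replicate. The other Ikzf2 probe set, 1421643_at, was dim (percentile 17.2) and gave -0.25 ± 0.13 for TCDD and -0.15 ± 0.13 for BaP.

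All 8 Foxp1 probe sets gave a lower mean with BaP than with DMSO, from -0.98 ± 0.14 at 1421141_a_at to -0.20 ± 0.09 at 1435221_at, and at 7 of them all BaP arrays lay below all DMSO arrays. TCDD minus BaP was above 0 at all 8, from 0.20 to 0.82. The probe sets of 1 source sequence did not share a size: 1435222_at, 1455242_at and 1435221_at gave TCDD minus BaP differences of 0.82, 0.36 and 0.20. The trio of the other source sequence, 1421140_a_at, 1421142_s_at and 1421141_a_at, gave 0.62, 0.53 and 0.82. At 1455242_at the TCDD arrays (6.53, 6.88 and 6.84) also lay below the DMSO arrays (7.09, 7.00 and 6.97), and TCDD differed from DMSO by -0.27 ± 0.09, or by -0.16 without wild-type TCDD replicate 1. The last 2, 1443258_at and 1438802_at, were dim (percentiles 30.8 and 16.3) and gave TCDD minus BaP differences of 0.22 ± 0.11 and 0.39 ± 0.18.

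**Figure D2:**
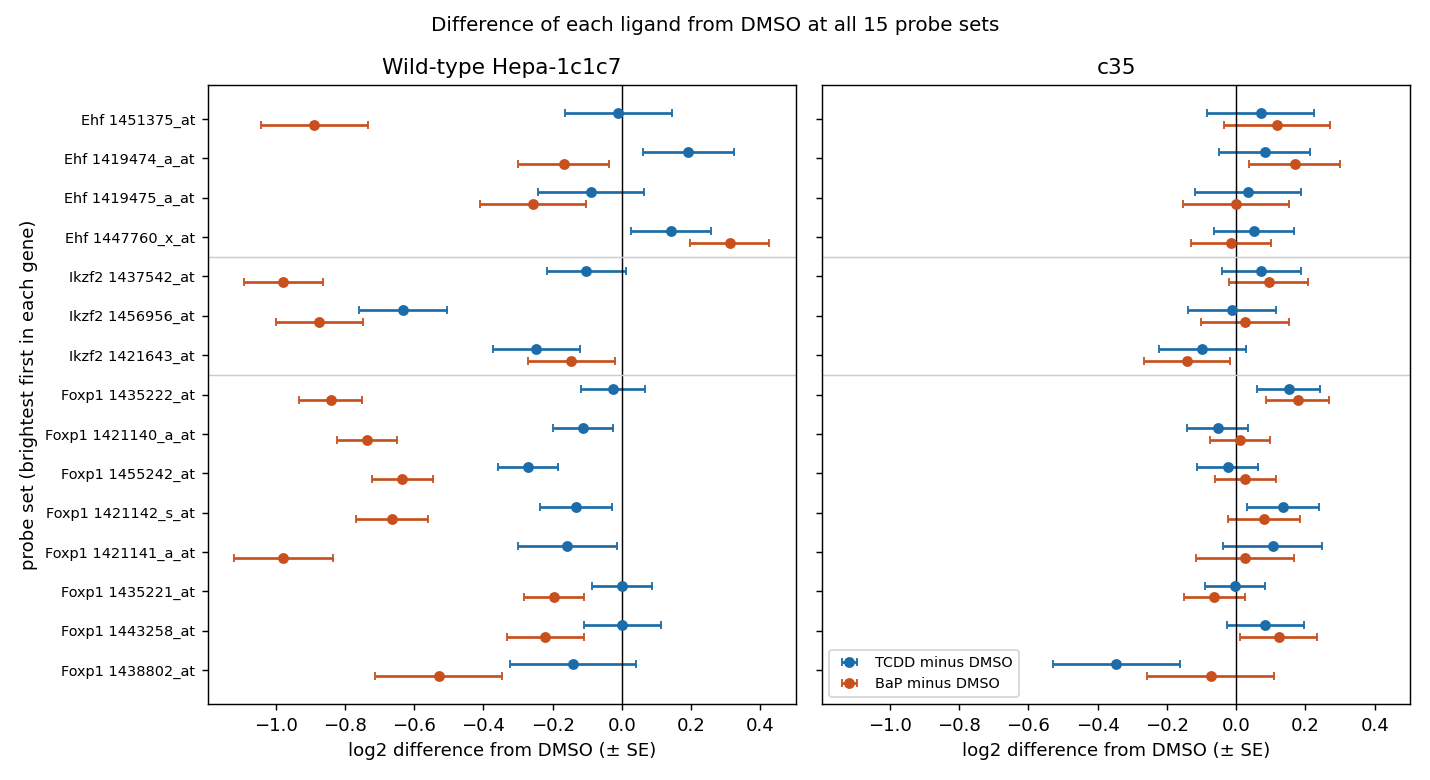
Log2 difference (± SE) of TCDD and of BaP from DMSO at each of the 15 probe sets, in wild-type cells (left) and c35 cells (right); within each gene the brightest probe set comes first. In wild-type cells the BaP points of 14 probe sets lie below 0, the exception being Ehf 1447760_x_at, and in c35 cells the points of both ligands lie between -0.35 and 0.18.

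Across the 15 probe sets the TCDD minus BaP difference in wild-type cells rose with the mean signal (Pearson r = 0.66 across probe sets). Across the 8 of Foxp1 r was 0.53. That mean is taken over the 18 arrays, c35 arrays included. Probe sets of 1 gene share targets and all points share the same 6 arrays, so these values only describe the plot. Averaged over all its probe sets on each array, Foxp1 kept the pattern, with means of 6.23 ± 0.05 (SD, n = 3) with DMSO, 6.12 ± 0.08 with TCDD and 5.63 ± 0.03 with BaP. Averaged Ikzf2 signals were 5.62 ± 0.13, 5.29 ± 0.11 and 4.95 ± 0.13 in the same order, so that TCDD lay between DMSO and BaP. Averaged Ehf signals were 4.73 ± 0.08, 4.79 ± 0.12 and 4.48 ± 0.05.

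**Figure D3:**
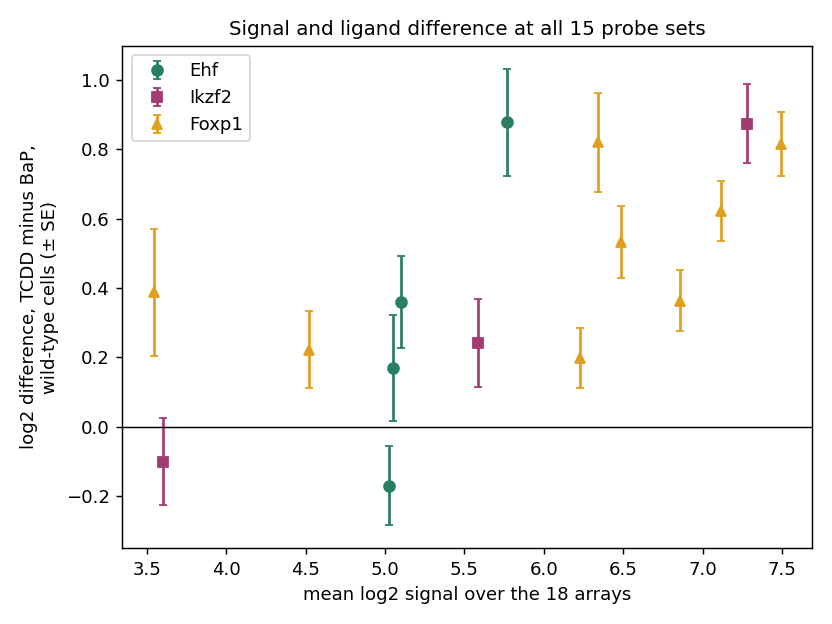
Difference between TCDD and BaP in wild-type cells (log2, ± SE) against the mean log2 signal over the 18 arrays, 1 point for each probe set. The brightest probe sets of Ehf (signal 5.77), Ikzf2 (7.28) and Foxp1 (7.49) and Foxp1 1421141_a_at (6.34) lie above 0.8, and the 2 points below 0 are Ehf 1447760_x_at and Ikzf2 1421643_at.

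The mean of both ligands against DMSO in wild-type cells was tested next. It draws on the TCDD and BaP arrays that chose the genes and can be moved by 1 ligand alone. With groups of equal size it is orthogonal to TCDD minus BaP, the difference that chose them. Of the 15 probe sets, 1 was called lower (limma, adjusted p below 0.05 and more than 1.5-fold), against 0.635% of all probe sets called and 0.246% called lower. It was Ikzf2 1456956_at, at -0.75 ± 0.11 (adjusted p = 0.000321). The call was lost without wild-type DMSO replicate 1, where the value was -0.58, because the change then fell short of 1.5-fold, and no member was called. The count was 2 without any 1 of wild-type BaP replicates 2 and 3, DMSO replicate 2 and TCDD replicates 1 and 3, with 1456956_at among them each time. Leaving out a TCDD or BaP array makes these groups unequal, so that those refits are not orthogonal to the difference that chose the genes.

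Another 6 probe sets passed the adjusted p alone, all of them lower with ligand. The share of all probe sets that passed this looser rule was not taken. The 0.635% given above belongs to the rule with 1.5-fold. Ikzf2 1437542_at gave -0.54 ± 0.10 (limma, adjusted p = 0.00294). Foxp1 1435222_at gave -0.43 ± 0.08 (limma, adjusted p = 0.00305), and 4 other Foxp1 probe sets gave -0.40 to -0.57 with adjusted p from 0.00141 to 0.0155. Of these, 1421141_a_at no longer passed without wild-type DMSO replicate 1 (-0.54, limma adjusted p = 0.0571). No Ehf probe set passed: 1451375_at gave -0.45 ± 0.13 (95% interval -0.73 to -0.17, limma adjusted p = 0.076), or -0.25 without wild-type DMSO replicate 1 (limma adjusted p = 0.505). The median over the 15 was -0.40, beside -0.004 over all probe sets tested.

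In c35 cells neither ligand moved a member past the threshold. The brightest Ehf probe set gave 6.51, 6.48 and 6.86 with DMSO, 6.62, 6.61 and 6.83 with TCDD and 6.98, 6.73 and 6.50 with BaP, and the 3 groups overlapped. For Ikzf2 1437542_at the c35 signals were 7.48, 7.42 and 7.74 with DMSO, 7.71, 7.50 and 7.64 with TCDD and 7.77, 7.69 and 7.46 with BaP. For Foxp1 1435222_at they were 7.24, 7.26 and 7.44 with DMSO, 7.28, 7.51 and 7.60 with TCDD and 7.47, 7.56 and 7.44 with BaP, and here BaP and DMSO overlapped only at the highest DMSO array.

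Of the 15 probe sets, 0 were called in c35 cells for TCDD against BaP, TCDD against DMSO or BaP against DMSO (limma, adjusted p below 0.1, with 0% of all 45037 probe sets called in each), and 0 had an unadjusted p below 0.05 in any of these 3 comparisons. Over all probe sets, 1168, 2244 and 1827 had an unadjusted p below 0.05. The 95% interval of TCDD minus BaP in c35 cells was -0.37 to 0.28 for Ehf 1451375_at, -0.26 to 0.22 for Ikzf2 1437542_at and -0.22 to 0.17 for Foxp1 1435222_at. For BaP minus DMSO in c35 cells the intervals were -0.20 to 0.44, -0.14 to 0.33 and -0.02 to 0.37. Among all 15, the arrays of TCDD lay wholly above those of BaP at 1 probe set, Foxp1 1435221_at (4.06% of all), and wholly below at 0 (3.91% of all).

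The line difference in the response was tested on the mean of both ligands minus DMSO, wild-type minus c35. Of the 15 probe sets, 3 were called, all lower in wild-type cells (limma, adjusted p below 0.05 and more than 1.5-fold), against 0.528% of all probe sets called and 0.111% called lower. They were Ikzf2 1437542_at at -0.62 ± 0.14 (adjusted p = 0.0317), Ikzf2 1456956_at at -0.76 ± 0.15 (adjusted p = 0.0167) and Foxp1 1435222_at at -0.60 ± 0.11 (adjusted p = 0.00896). The test shares its wild-type arrays, among them those that chose the genes, with the test of both ligands in wild-type cells. The calls were close to their thresholds: 0 remained without c35 DMSO replicate 2, and 1, Ikzf2 1456956_at, remained without any 1 of c35 DMSO replicate 1, c35 TCDD replicate 3, wild-type BaP replicate 1 and wild-type DMSO replicate 3. Foxp1 1435222_at was also lost without c35 BaP replicate 2 (-0.58) or wild-type TCDD replicate 1 (-0.56), and Ikzf2 1456956_at without wild-type DMSO replicate 1 (-0.58). Ikzf2 1437542_at was lost without any 1 of 11 of the 18 arrays, with values of -0.65 to -0.55. For Ehf 1451375_at the line difference was -0.54 ± 0.19 (95% interval -0.94 to -0.15, limma adjusted p = 0.266), and it was not called. Without wild-type DMSO replicate 1 it was -0.34 (limma adjusted p = 0.496).

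Taken ligand by ligand, with no test since the BaP and TCDD arrays of wild-type cells chose the genes, the response to BaP differed between lines by -1.01 ± 0.22 for Ehf 1451375_at, -1.07 ± 0.16 for Ikzf2 1437542_at and -1.02 ± 0.13 for Foxp1 1435222_at. The response to TCDD differed between lines by -0.08 ± 0.22, -0.18 ± 0.16 and -0.18 ± 0.13 for the same probe sets.

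Naive wild-type and naive c35 cells differed at 3 of the 4 Ehf probe sets by more than 1.5-fold. They did so at 0 of the 11 Ikzf2 and Foxp1 probe sets, and whether the genes differed from each other was not tested. The naive arrays had no part in the TCDD minus BaP difference that chose the genes. They did enter the mean signal that named the brightest probe sets. With BaP in wild-type cells, Ehf 1451375_at lay below 1447760_x_at (means 4.27 and 5.14). In the other groups it lay above, most in c35 cells (naive means 6.62 and 5.06). Its naive line difference is thus not independent of the choice. The DMSO signals at 1451375_at, given above, lay at 4.90 to 5.56 in wild-type cells and at 6.48 to 6.86 in c35 cells. At 1419474_a_at they were 4.33, 4.10 and 4.29 in wild-type cells and 5.73, 5.92 and 5.97 in c35 cells. At all 4 Ehf probe sets every wild-type array lay below every c35 array, a separation seen at 21.7% of all probe sets.

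Of the 15 probe sets, 3 were called between the naive lines, all Ehf and all lower in wild-type cells (limma, adjusted p below 0.05 and more than 1.5-fold), against 14.3% of all probe sets called and 6.27% called lower. The differences were -1.46 ± 0.15 at 1451375_at (adjusted p = 1.8e-07), -1.63 ± 0.13 at 1419474_a_at (adjusted p = 3.83e-09) and -0.79 ± 0.15 at 1419475_a_at (adjusted p = 0.000317), or 2.75-fold, 3.1-fold and 1.73-fold. At 1447760_x_at, the probe set that went against the others with BaP, the difference was -0.24 ± 0.11 (95% interval -0.48 to 0.01, adjusted p = 0.129). Without wild-type DMSO replicate 1 the first of these was -1.66. The Actb measure of RNA integrity differed between the lines in every array; with it as a covariate, an alternative added after the data were seen, the first 2 were -1.79 and -1.88 and stayed called, and 1419475_a_at was -0.59 (adjusted p = 0.0859) and was not.

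The Foxp1 probe sets pointed both ways between the naive lines. At 1435222_at the wild-type DMSO arrays lay above those of c35 (a difference of 0.55 ± 0.09, limma adjusted p = 6.53e-05, 1.46-fold). At 1421140_a_at, with signals of 7.18, 7.05 and 7.18 in wild-type cells and 7.38, 7.44 and 7.38 in c35 cells, they lay below (-0.27 ± 0.09, limma adjusted p = 0.0197, 1.2-fold). Both passed the adjusted p and neither passed 1.5-fold, except that 1435222_at was also called without c35 DMSO replicate 3 and with array weights or the Actb covariate. Of the 8 Foxp1 probe sets, 2 had all wild-type arrays above all c35 arrays (22.1% of all probe sets) and 2 had them all below. The other 6 differed by -0.12 to 0.26.

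No Ikzf2 probe set differed between the naive lines past the threshold. The differences were -0.22 ± 0.11 at 1437542_at (95% interval -0.46 to 0.02, limma adjusted p = 0.152), -0.15 ± 0.13 at 1456956_at and 0.12 ± 0.13 at 1421643_at, and at none of the 3 did the lines separate. At 1456956_at this rested on wild-type DMSO replicate 1 (6.12). The other wild-type DMSO arrays (5.66 and 5.51) lay below those of c35 (5.81 to 5.97). Without that replicate the difference was -0.32 (limma adjusted p = 0.0331), still below 1.5-fold.

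**Figure D4:**
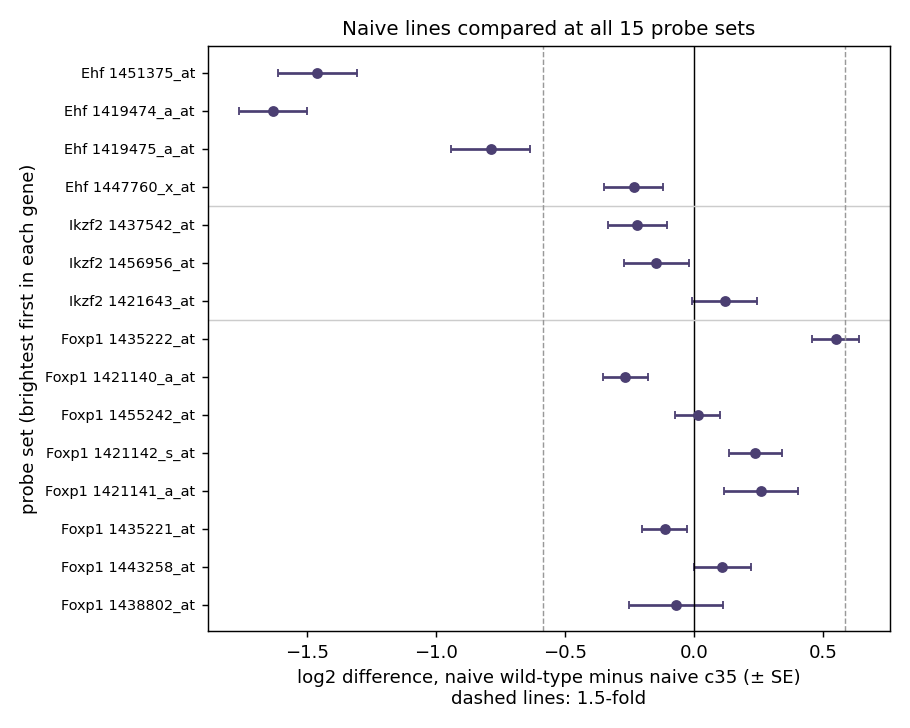
Log2 difference (± SE) between naive wild-type and naive c35 cells at each of the 15 probe sets; dashed lines mark 1.5-fold. The 3 called Ehf probe sets lie to the left of the dashed line at -1.46, -1.63 and -0.79, and Foxp1 probe sets lie on both sides of 0.

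The probe sets of 1 gene were compared across arrays by Pearson's r, given as a description, since arrays of a line share their cells and the largest part of a value over both lines can be the line itself. In the 9 wild-type arrays, Foxp1 1435222_at correlated with 1421140_a_at at 0.97 and with 1421141_a_at at 0.97, and the 28 pairs of Foxp1 probe sets ran from 0.14 to 0.98. In the 9 c35 arrays, where no ligand difference was called, the same pairs ran from -0.67 to 0.71. For Ikzf2, 1437542_at and 1456956_at correlated at 0.67 in wild-type and 0.47 in c35 arrays. For Ehf, 1451375_at correlated with 1447760_x_at at -0.63 in wild-type and -0.43 in c35 arrays.

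Between genes, Ehf 1451375_at and Ikzf2 1437542_at correlated at 0.86 in the 9 wild-type arrays and at 0.87 in the 9 c35 arrays. Ehf 1451375_at and Foxp1 1435222_at correlated at 0.86 and 0.60, and Ikzf2 1437542_at and Foxp1 1435222_at at 0.93 and 0.39. The wild-type values hold the ligand difference by which the genes were chosen.

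The genes most like each brightest probe set were taken from probe sets of 1 symbol and at least median signal. Over all 18 arrays these were Parva (r = 0.986), Pvt1 (0.985) and Arhgef26 (0.985) for Ehf, Ak4 (0.96), Bnip3 (0.94) and Pdk1 (0.94) for Ikzf2, and Prkce (0.915), Sesn3 (0.901) and Ablim1 (0.888) for Foxp1. Parva encodes a focal adhesion protein, Ak4 a mitochondrial adenylate kinase, Pdk1 a pyruvate dehydrogenase kinase, Prkce a protein kinase C isoform and Ablim1 an actin-binding protein. Mean signals of Ak4 were 8.13, 8.09 and 7.43 in wild-type cells with DMSO, TCDD and BaP and 8.33 in naive c35 cells, and those of Prkce were 7.17, 7.20, 6.48 and 6.90.

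Over the 9 wild-type arrays alone, the closest were Phf20 (r = 0.986), Srgap2 (0.968) and Vps35l (0.965) for Ehf, Dip2b (0.987), Exoc6 (0.987) and Egln1 (0.978) for Ikzf2, and Agap1 (0.993), Arhgap29 (0.987) and Msto1 (0.984) for Foxp1. No gene was among the closest 3 of the same member in both sets of arrays. Their differences could be small: Phf20, a PHD-finger protein, had means of 9.29, 9.26 and 9.03 with DMSO, TCDD and BaP in wild-type cells. Exoc6, a part of the exocyst complex, had means of 7.33, 7.24 and 6.83.

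The related genes were read from the brightest probe set of each. Of 24 measured ETS genes, Ehf included, 0 were called for the mean of both ligands in wild-type cells (limma, 0.665% of all genes). Between the naive lines 5 of the 24 were called (14% of all genes), namely Ehf, Elf3 (-0.70 ± 0.08) and Elk3 (-0.86 ± 0.09) lower in wild-type cells and Ets1 (0.66 ± 0.10) and Gabpa (1.01 ± 0.11) higher. Elf3, like Ehf an ETS factor of epithelial cells, thus went the same way as Ehf, while Elf5 (0.08 ± 0.12) and Spdef (-0.23 ± 0.10), from the same group of epithelial ETS factors, were not called.

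None of the 4 other Ikaros genes was called in any comparison. Of all genes, 14% were called between the naive lines, 0.665% for the mean of both ligands and 0.72% for the line difference. The absence of calls among 4 genes thus says little. Their values for the mean of both ligands in wild-type cells were 0.01 ± 0.09 for Ikzf1, 0.04 ± 0.12 for Ikzf3, -0.04 ± 0.08 for Ikzf4 and 0.27 ± 0.09 for Ikzf5 (limma, adjusted p = 0.106), beside -0.54 ± 0.10 for Ikzf2. Of 37 measured forkhead genes, Foxp1 included, 1 was called for the mean of both ligands (0.665% of all genes). It was Foxq1, which was higher (0.68 ± 0.07, limma adjusted p = 9.48e-06) and also differed between lines (0.60, limma adjusted p = 0.00394, 0.72% of all genes called). The paralogs of Foxp1 were not called, with values of -0.03 ± 0.08 for Foxp2, 0.13 ± 0.10 for Foxp3 and -0.17 ± 0.08 for Foxp4. Foxn2 was the 1 forkhead gene of the 37 called between the naive lines (1.05 ± 0.11), beside 14% of all genes.

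Of 18 measured genes of the NuRD, SIN3 and CtBP corepressor complexes, the kind of partner that Ikaros and FOXP proteins use, 0 were called for the mean of both ligands (0.665% of all genes). Their median was -0.08, beside 0.003 over all genes. Between the naive lines 5 were called, beside 14% of all genes: Mta2 (0.90 ± 0.09), Ctbp2 (0.66 ± 0.13) and Hdac2 (0.59 ± 0.07) were higher in wild-type cells, and Mbd3 (-0.74 ± 0.08) and Mta1 (-0.70 ± 0.07) lower. As a check on the exposure, 7 of the 9 AHR battery genes measured were called higher with the mean of both ligands in wild-type cells (median 1.67). The share of all genes called was 0.665%. At the top were Cyp1a1 (3.49 ± 0.58), Tiparp (2.52 ± 0.21) and Aldh3a1 (1.77 ± 0.09). In c35 cells 0 of the 9 were called, beside 0% of all genes. Some of the 9 spread widely between c35 arrays. The SD of Cyp1a1 there was 2.00 with DMSO, 0.38 with TCDD and 1.57 with BaP, against 0.05 to 0.11 in the wild-type groups. That of Tiparp was 0.575 with DMSO and 0.686 with BaP. What this spread does to other comparisons was not tested.

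The markers of cell types were described by the mean of their log2 signals on each array. The 11 hepatocyte markers measured lay at 7.56 to 7.96 over all arrays, and single markers at percentiles from 29.9 (Fgb, a fibrinogen chain) to 99.3 (Rbp4, a retinol carrier). Between the naive lines 3 of the 11 were called, beside 14% of all genes (limma). Alb, which encodes albumin, was higher in wild-type cells (2.46 ± 0.09, limma adjusted p = 3.6e-14), and Fgb (-0.95 ± 0.23) and Rbp4 (-0.64 ± 0.07) were lower. The 9 lymphoid markers measured lay at 4.98 to 5.16, at percentiles from 8.41 (Ptprc, the pan-leukocyte antigen CD45) to 61.9 (Cd8a), and 3 of the 9 were above the median of all probe sets. The 12 epithelial markers lay at 7.31 to 7.69 over all arrays, at 7.41 to 7.47 in naive wild-type and at 7.59 to 7.67 in naive c35 cells. Of these, 2 were called between the naive lines, beside 14% of all genes: the keratins Krt19 (-1.61 ± 0.14) and Krt7 (-0.84 ± 0.07) were lower in wild-type cells. The median over the 12 was -0.05, beside -0.03 over all genes. Cldn4, a claudin, gave 0.56 ± 0.11 (limma adjusted p = 0.000518) and the transcription factor Grhl2 0.30 ± 0.11 (limma adjusted p = 0.0349), both below 1.5-fold and opposite in sign to Ehf. Cdh1, which encodes E-cadherin, was at percentile 7.92. The part of the hepatocyte and epithelial markers in the Ehf difference was not tested.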

How the data were processed

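Total RNA of the 18 cultures was hybridised to Affymetrix arrays of the whole mouse transcriptome. The authors deposited log2 signals, which the submitters' processing notes say came from RMA (background correction, quantile normalisation and summary of the probes of each probe set); no version or genome build is given in the sources used here. RMA pulls dim probe sets towards small differences. Gene names were those of GEO's platform annotation: 34945 tested probe sets had 1 symbol, 932 several and 9160 none. The number of arrays, not a count depth, limits the precision.

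Here, limma 3.58.1 in R 4.3.3 fitted 1 mean for each of the 6 groups to the 45037 probe sets that are not controls, with an intensity trend, and adjusted p by Benjamini and Hochberg over all of them. Calls needed an adjusted p below 0.05 and more than 1.5-fold, or, for ligands in c35 cells, an adjusted p below 0.1. The fit was tested on simulated data. The members, the 8 gene lists and the tests were chosen with earlier results of these data known. Every member probe set is described, the brightest of each gene in full; from each list, up to 3 called genes in each direction and named paralogs are given. Alternatives were no trend, array weights, quantile normalisation, median centring, a filter at the median signal, a replicate block, only the arrays compared, each array left out, no minimum change and, added after the data were seen, an Actb covariate. Python 3.11.15 searched the promoters and drew the plots (matplotlib 3.10.9).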

Additional observations from a re-analysis of the deposited data

Results flagged for a closer look

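The response to the mean of both ligands differed between the lines at 3 probe sets by limma's test of the difference itself: Ikzf2 1437542_at (-0.62, adjusted p = 0.0317), Ikzf2 1456956_at (-0.76, adjusted p = 0.0167) and Foxp1 1435222_at (-0.60, adjusted p = 0.00896), all lower in wild-type than in c35 cells. The test draws in part on the wild-type TCDD and BaP arrays that chose the genes.

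Under the alternatives the value of Ikzf2 1437542_at ran from -0.72 to -0.55 (adjusted p from 0.00846 to 0.15) and was not called in 12 of 25, namely with no intensity trend and without any 1 of 11 arrays: c35 BaP replicate 1, c35 DMSO replicates 1 and 2, c35 TCDD replicates 1 and 3, wild-type BaP replicates 1 and 3, wild-type DMSO replicates 2 and 3 and wild-type TCDD replicates 2 and 3. The highest of these adjusted p came without c35 DMSO replicate 2. Ikzf2 1456956_at ran from -0.89 to -0.58 (adjusted p from 0.00567 to 0.0849) and was not called in 2 of 24, without c35 DMSO replicate 2 (-0.71) and without wild-type DMSO replicate 1 (-0.58). Foxp1 1435222_at ran from -0.66 to -0.56 (adjusted p from 0.00064 to 0.0492) and was not called in 7 of 25, each time because the change fell under 1.5-fold: without c35 BaP replicate 2, c35 DMSO replicate 1 or 2, c35 TCDD replicate 3, wild-type BaP replicate 1, wild-type DMSO replicate 3 or wild-type TCDD replicate 1.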

How the results depend on the processing

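No value changed sign among the probe sets called, and 13 of 15 alternatives kept the count of 3 between the naive lines within 1.5 times; it was 1 with probe sets of at least median signal, which tests fewer probe sets, and 5 with no minimum change. The count for the mean of both ligands in wild-type cells (1) was 0 with probe sets of at least median signal, 7 with no minimum change and 0 to 2 when 1 array was left out. No share of all probe sets was taken for the counts with no minimum change. The count for the line difference (3) was 0 to 4 when 1 array was left out; it could not be refitted on the arrays compared alone, since it uses all of them. The 3 counts of 0 in c35 cells stayed 0 under all 15 alternatives each. Replicate numbers are shared between groups, and the main fit did not pair arrays by them. Deviations of same-numbered arrays correlated at -0.255 to 0.219, 8 of 45 pairs were above 0.1, and 11 of 18 arrays correlated best with their own number. Some pairing is thus possible. With the replicate block the counts were 3 between the naive lines, 1 for the mean of both ligands, 4 for the line difference and 0 in each c35 comparison. Neither quantile normalisation nor median centring moved the median of all probe sets by 0.1. The number of arrays, 3 a group, limits the precision.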
